A study of Homo sapiens with 16 samples.

Results

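The genes described here are 10 that are measured in most studies of the epithelial-mesenchymal transition (EMT): the transcription factors ZEB1, ZEB2, SNAI1, SNAI2, TWIST1 and TWIST2, the cadherins CDH1, CDH2 and CDH11, and VIM. They were chosen by symbol, as 10 of the 57500 genes in a table of raw counts, and each symbol occurred with 1 Ensembl identifier. When the hairpin against AKAP2 was induced, ZEB1 and CDH11 fell and VIM fell slightly, but the VIM call was lost under 8 of 16 alternative analyses. SNAI1 was called higher, but from 3 to 8 counts per library, and it entered the test only through its level in the control line. Before induction SNAI2, ZEB2 and VIM differed between the lines, with the SNAI2 and ZEB2 calls lost when certain single libraries were left out. SNAI1 was called lower in the AKAP2 hairpin line, but had too few counts to be tested with the uninduced libraries alone. CDH2 was low in all groups, CDH1 was at a few counts in most libraries, and TWIST1 and TWIST2 had too few counts to be tested.

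The cells were MDA-MB-231, an established human triple-negative breast cancer line, and polyadenylated RNA was sequenced. Every group carried a short hairpin RNA that doxycycline switches on, either a scrambled control (shScramble) or one against AKAP2 (shAKAP2), and each line was grown without or with doxycycline. That gave uninduced shScramble, induced shScramble, uninduced shAKAP2 and induced shAKAP2, with 4 libraries in each of the 4 groups. AKAP2 encodes an A-kinase anchoring protein, and the series asks about its part in focal adhesion signalling, growth and metastasis. Neither the doxycycline dose, the time, the hairpin sequence nor whether a line is 1 clone is given in the sources used here. Libraries within a group are labelled as biological replicates, but separate cultures are not stated, so each p-value reflects only how far these libraries varied, which may be technical.

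In EMT, epithelial cells loosen their junctions and take on the shape and motility of mesenchymal cells. ZEB, SNAI and TWIST proteins bind E-box motifs and repress epithelial genes, of which CDH1 (E-cadherin, the main adhesion protein of epithelial junctions) is the best known target. CDH2 (N-cadherin), CDH11 (a cadherin of mesenchymal and bone-forming cells) and the intermediate filament protein vimentin mark the mesenchymal side. MDA-MB-231 is widely used as a mesenchymal-like breast cancer line with little E-cadherin.

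ZEB1 and ZEB2 are also the best known targets of the miR-200 family, small RNAs of epithelial cells that bind sites in the 3' untranslated region (3' UTR) of those messages. The 5 mature family members from RefSeq (GRCh38.p14) are shown because they share just a pair of seeds, bases 2 to 8, given here in capitals:
hsa-miR-200b-3p: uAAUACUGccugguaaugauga
hsa-miR-200c-3p: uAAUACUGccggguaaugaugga
hsa-miR-429: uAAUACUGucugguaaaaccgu
hsa-miR-200a-3p: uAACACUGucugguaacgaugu
hsa-miR-141-3p: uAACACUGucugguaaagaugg

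The seeds pair with the words CAGTATT and CAGTGTT. Words were counted on the transcript strand in 1 transcript per gene of GENCODE 29 (GRCh38), allowing overlaps. The 2549-base 3' UTR of ZEB1 holds 6 copies of CAGTATT and 3 of CAGTGTT. The 5370-base 3' UTR of ZEB2 holds 5 and 4. CDH11 and SNAI2 hold 1 copy of CAGTATT each and no CAGTGTT, and the 3' UTRs of the other 6 members hold neither word. Among 19027 genes with an annotated 3' UTR of any length, 14.1% hold CAGTATT and 15.9% CAGTGTT. The copies nearest the start of the 3' UTR of ZEB1 and of ZEB2, and the copy in CDH11, are printed with the word in capitals:
ZEB1, chr10:31527622-31527650, plus strand: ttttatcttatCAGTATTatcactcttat
ZEB1, chr10:31528035-31528063, plus strand: atcatcagaatCAGTGTTtgtgattgtgt
ZEB2, chr2:144389042-144389070, minus strand: ctaccatacatCAGTATTtttattattat
ZEB2, chr2:144389226-144389254, minus strand: aaaattttgtaCAGTGTTaaggcctaaaa
CDH11, chr16:64946888-64946916, minus strand: cgtataaatatCAGTATTctgacatgtaa
The miRNAs themselves were not measured. MIR200CHG, the host transcript of miR-200c and miR-141, had 0 counts in all 16 libraries, which allows up to 3 counts in each, and this says nothing of the mature miRNAs.

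A different word was counted as well. GAACACA was picked in earlier work on these data because it was common among genes that fell when the shAKAP2 hairpin was induced, so its share there is a description. It stood in the 3' UTR of 27.6% of 2170 genes lower, 4.34% of 1914 higher and 7.95% of 8740 not called, and in 9.95% of all 19027 3' UTRs. The 3' UTRs of ZEB1, CDH11 and VIM, the members that fell, hold none, nor do those of SNAI1, SNAI2, TWIST1 and CDH2. The ZEB1 transcript holds 3 copies outside its 3' UTR, and none was found in the rest of the CDH11 or VIM transcript. ZEB2, TWIST2 and CDH1 hold 1 copy in the 3' UTR, as does AKAP2. The copies in ZEB2 and CDH1 are shown because these are the tested members with the word, and neither passed the test on induction, and the copy in AKAP2 because it is the hairpin's target:
ZEB2, chr2:144384988-144385016, minus strand: gacatatatgtGAACACAtcacaaatcat
CDH1, chr16:68835062-68835090, plus strand: ctggctgagctGAACACAtttgcccaatt
AKAP2, chr9:110169247-110169275, plus strand: gcagtttatgaGAACACAttttcacagtt

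The libraries held 24482997 to 37472525 counts, and 15566 genes had enough of them to be tested. AKAP2 had 42, 36, 37 and 53 counts in uninduced shAKAP2 and 3, 0, 1 and 0 after induction, a fall of 5.06 on the log2 scale (coded as -5.06, SE 0.578, adjusted p = 1.26e-06), although 85.8% of its exon bases are shared with the longer locus PALM2-AKAP2, so its counts are uncertain. The replicate 1 libraries of both shScramble groups stood apart from their groups, with a mean distance to the other libraries of 0.638 and 0.673 (root mean square difference of log2 values) against 0.481 to 0.57 in the other 14. The defining genes of MDA-MB-231 and similar lines (CD44, AXL, CAV1 and 7 others) summed to between 6545 and 8331 CPM in every library, where CPM is the read count scaled to TMM-adjusted library size. A list of 11 luminal genes summed to 261 to 453 CPM, of which KRT19 gave 61.3% and CLDN4 25.3%, and EPCAM, GATA3 and CLDN7 averaged 15.8, 14.6 and 9.66 CPM, while ESR1 and FOXA1 had 1 and 2 counts over all libraries. Mitochondrially encoded genes took 1.86% to 2.38% of counts in uninduced and 1.02% to 2.04% in induced shAKAP2, and the part of this in the results was not tested. Genes were called with edgeR's quasi-likelihood test where the p, adjusted over all tested genes by the Benjamini-Hochberg method, was under 0.05. Fold changes are log2 and SE is the standard error. In bulk samples, fewer cells of a kind and less RNA per cell cannot be told apart.

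Of the 10 members, 8 passed the filter on low counts, and TWIST1 and TWIST2 did not. Per kilobase of exon, VIM stood far above the rest, at a mean of 271 to 334 CPM per kb across the 4 groups. SNAI2 (10.4 to 14.8), ZEB1 (7.81 to 11.5) and CDH11 (2.28 to 10.3) came next, on the same scale. ZEB2 (0.45 to 0.683), SNAI1 (0.0984 to 0.479) and CDH2 (0.253 to 0.424) followed, and CDH1 lay at 0.0122 to 0.153. Among the 7 most abundant members, neighbours in this order whose libraries overlapped were ZEB1 with CDH11 and ZEB2 with SNAI1 in both shScramble groups, ZEB1 with SNAI2 in uninduced shAKAP2, and CDH2 with SNAI1 in both shAKAP2 groups and in induced shScramble. Divided by the longest transcript in place of all exon bases, CDH11 moved above SNAI2 and ZEB1 in both shScramble groups while VIM kept the highest and ZEB1, SNAI2 and CDH11 the next 3 places in each group.

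**Figure D1:**
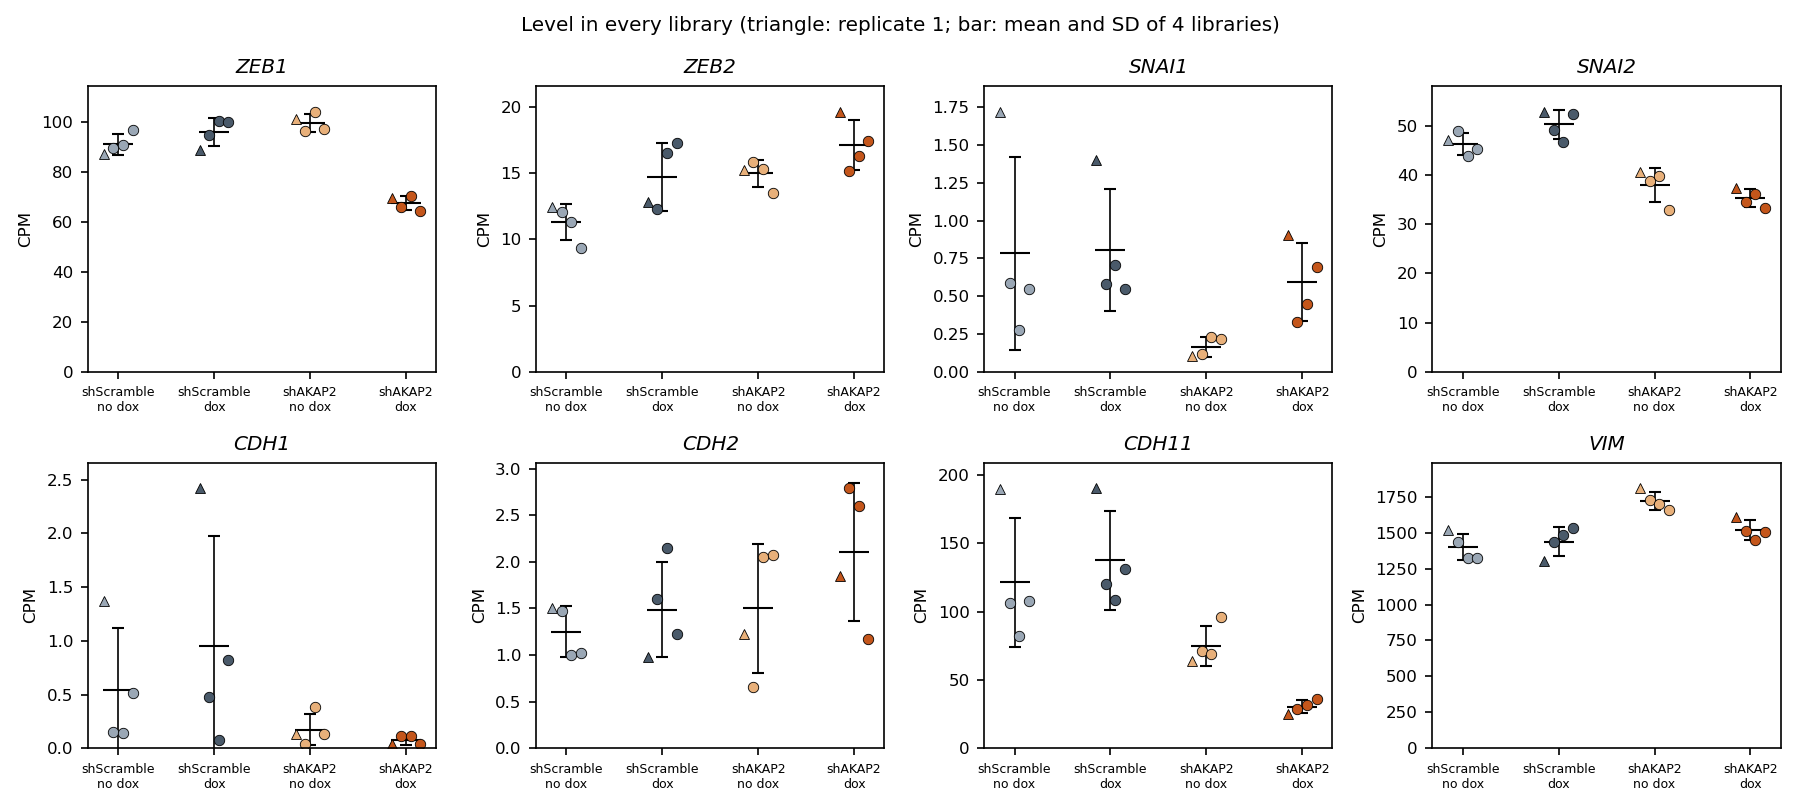
CPM (linear axis from 0) of the 8 tested members in each of the 16 libraries, by group. Triangles are replicate 1, circles replicates 2 to 4, and bars the mean and SD of 4 libraries. The 4 induced shAKAP2 libraries lie below all others for ZEB1 and CDH11, and the replicate 1 libraries of shScramble are the highest of their groups for SNAI1, CDH1 and CDH11.

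On induction of the shAKAP2 hairpin, 1 member of the 8 tested was higher and 3 were lower, where 13.1% of all genes tested were higher and 15.2% lower. With upper quartile scaling the balance over all genes turned, with 54% of calls higher in place of 46.1%. The median log2 change was -0.144 over the 8 members and 0.00159 over all genes. The 8 include SNAI1 and CDH1, which did not pass the filter on low counts with the shAKAP2 libraries alone. With those libraries alone no member was called higher. In shScramble, doxycycline gave 0 higher and 0 lower members, against 0.559% and 0.52% of all genes. Over all genes the same test called 168 in shScramble at adjusted p under 0.05, and 1456 had an unadjusted p under 0.05. Without both shScramble replicate 1 libraries, ZEB2 was called higher with doxycycline in shScramble (0.50, adjusted p = 0.0186). The interaction term, the doxycycline effect in shAKAP2 minus that in shScramble, was higher for 0 and lower for 2 of the members, against 7.53% and 10.5% of all genes. This term removes drug effects that both lines share.

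ZEB1 (ENSG00000148516; GRCh38 chromosome 10, 31318495 to 31529814, plus strand) encodes a zinc-finger and homeobox repressor that holds cells in a mesenchymal state. Its level was 101, 96.4, 104 and 97.1 CPM in the uninduced shAKAP2 libraries and 69.6, 66.1, 70.3 and 64.2 CPM in the induced ones. It was 87.1, 89.7, 91.0 and 96.9 CPM in uninduced and 88.9, 94.8, 100.5 and 100.1 CPM in induced shScramble. Every induced shAKAP2 library lay below all 12 others. The fall was -0.56 on the log2 scale (SE 0.0626, adjusted p = 9.44e-07), from 99.7 ± 3.58 to 67.6 ± 2.89 CPM (SD, n = 4 each). In shScramble the change was 0.08 (SE 0.0622, adjusted p = 0.808), and the difference between those changes was -0.64 (SE 0.0882, adjusted p = 3.18e-05). The lines did not pass the test without doxycycline (0.13, adjusted p = 0.158) and differed with it (-0.51, adjusted p = 2.1e-06). Under the alternatives tried, the difference between the changes ranged from -0.68 to -0.60 with adjusted p at most 0.00017. The antisense gene ZEB1-AS1, which shares 366 of the 8650 exon bases of ZEB1, was at 4.34 to 7.48 CPM and was not called on induction (0.21, SE 0.17, adjusted p = 0.395).

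ZEB2 (ENSG00000169554; chromosome 2, 144364364 to 144524583, minus strand), the paralog of ZEB1 and also a CDH1 repressor, did not pass the test on induction. It read 15.2, 15.8, 15.3 and 13.5 CPM in uninduced and 19.6, 15.2, 16.3 and 17.4 CPM in induced shAKAP2, and these groups overlapped (0.19, SE 0.126, adjusted p = 0.272; 95% interval -0.07 to 0.46). In shScramble it read 12.4, 12.03, 11.3 and 9.34 CPM without and 12.8, 12.3, 16.5 and 17.3 CPM with doxycycline. The uninduced lines did not overlap, and ZEB2 was higher in shAKAP2 by 0.41 (SE 0.127, adjusted p = 0.0321). That call was lost when any of 5 single libraries was left out (uninduced shScramble 3 or 4, uninduced shAKAP2 1, 2 or 3), with values of 0.33 to 0.41. ZEB2-AS1, which overlaps it, had 0 to 3 counts per library. ZEB2 is also expressed in blood cells, and 15 blood markers summed to 91.2 to 109 CPM in uninduced and 144 to 197 CPM in induced shScramble, and to 79.7 to 93.2 and 54.7 to 73.0 CPM in uninduced and induced shAKAP2. LAPTM5 gave 78.8% of that sum, and CD3E had 1 count in all libraries. Some markers had few counts, as SPI1 with 4 in uninduced shScramble and 51 in uninduced shAKAP2, and TYROBP with 3 and 41. Of 12 markers tested, 7 were higher and 1 lower in shAKAP2 without doxycycline, where 8.65% of all genes were higher and 9.31% lower. The part of these markers in the ZEB2 values was not tested.

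SNAI1 (ENSG00000124216; chromosome 20, 49982999 to 49988886, plus strand) encodes the short-lived repressor Snail, often the first of these factors to act in EMT. Its counts were 3, 3, 6 and 8 in uninduced and 22, 9, 12 and 19 in induced shAKAP2, or 0.102, 0.115, 0.228 and 0.218 against 0.906, 0.33, 0.451 and 0.696 CPM. The groups did not overlap, and the fitted change was 1.80 (SE 0.597, adjusted p = 0.0287). No fold is drawn from it, because 2 of the uninduced libraries were at the floor of 3 counts and SNAI1 did not pass the filter on low counts with the shAKAP2 libraries alone. In shScramble it read 1.72, 0.59, 0.276 and 0.549 CPM without and 1.40, 0.578, 0.704 and 0.547 CPM with doxycycline, a change of 0.01 (SE 0.517, adjusted p = 0.998). The lines' changes differed by 1.79 (SE 0.784), which missed the threshold (adjusted p = 0.128).

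The SNAI1 levels of induced shAKAP2 lay within the range of shScramble, and it was the uninduced shAKAP2 libraries that were low. Without doxycycline SNAI1 was lower in shAKAP2 than in shScramble by 2.22 on the log2 scale (coded as -2.22, SE 0.585, adjusted p = 0.0133), with no overlap. Without uninduced shScramble replicate 1 that difference was -1.47 (adjusted p = 0.0892). The rise on induction was not called with limma-voom (1.69, adjusted p = 0.0748), or when uninduced shAKAP2 replicate 1 or 2 or induced replicate 1 or 4 was left out (1.53 to 1.71, adjusted p 0.0639 to 0.0876). With the uninduced libraries of both lines alone, SNAI1 did not pass the filter either.

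SNAI2 (ENSG00000019549; chromosome 8, 48917604 to 48921740, minus strand) encodes Slug, a relative of Snail that is abundant in basal-like breast cells. Its level was 47.1, 48.9, 43.9 and 45.3 CPM in uninduced and 52.9, 49.2, 46.7 and 52.5 CPM in induced shScramble. In shAKAP2 it was 40.5, 38.8, 39.9 and 33.0 CPM without and 37.4, 34.5, 36.2 and 33.3 CPM with doxycycline. All shAKAP2 libraries lay below all shScramble libraries. The line difference was -0.28 without doxycycline (SE 0.0771, adjusted p = 0.0157) and -0.51 with it (SE 0.0774, adjusted p = 2.59e-05). Induction gave -0.11 in shAKAP2 (SE 0.0776, adjusted p = 0.342) and 0.12 in shScramble (SE 0.0767, adjusted p = 0.706), and the difference of -0.23 between them missed the threshold (SE 0.109, adjusted p = 0.171). The uninduced line difference was lost without shScramble replicate 2 (-0.26, adjusted p = 0.0502) or shAKAP2 replicate 4 (-0.22, adjusted p = 0.0622).

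TWIST1 (ENSG00000122691; chromosome 7, 19020991 to 19117672, minus strand) and TWIST2 (ENSG00000233608; chromosome 2, 238848032 to 238910543, plus strand) encode basic helix-loop-helix factors of the mesoderm. Most libraries were at or under the floor of 3 counts, so no fold is given. TWIST1 summed to 1 count in uninduced shScramble, 7 in uninduced and 2 in induced shAKAP2. In induced shScramble it summed to 21, as 14, 1, 6 and 0, so that replicate 1 held most of them. TWIST2 summed to 2, 2, 7 and 0 counts in uninduced and induced shScramble and uninduced and induced shAKAP2, and 6 of the 7 came from replicate 3.

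CDH1 (ENSG00000039068; chromosome 16, 68737225 to 68835548, plus strand) was at a few counts in most libraries. It had 51, 4, 4 and 14 counts in uninduced shScramble, 62, 14, 2 and 30 in induced shScramble, 4, 1, 10 and 5 in uninduced shAKAP2 and 1, 3, 3 and 1 in induced shAKAP2. The highest in each shScramble group was replicate 1. With doxycycline the fitted difference between the lines was -3.57 (SE 0.969, adjusted p = 0.00613; 95% interval -5.59 to -1.54), although 1 shScramble library, with 2 counts, lay within the shAKAP2 range. With only the groups compared CDH1 did not pass the filter on low counts, here or on induction of shAKAP2, so it was tested only because other shScramble libraries were high. Without both shScramble replicate 1 libraries the value was -2.57 (adjusted p = 0.0132), and limma-voom gave -2.72 (adjusted p = 0.0706). Induction of the shAKAP2 hairpin gave -1.13 (SE 1.09, adjusted p = 0.483), and the interval of -3.41 to 1.14 spans both directions. All induced shAKAP2 libraries were at or under the floor of 3 counts. Changes in CDH1 anywhere within that interval, large ones among them, could not be told from none.

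CDH2 (ENSG00000170558; chromosome 18, 27950966 to 28177446, minus strand) was also low, at 0.653 to 2.79 CPM over the 16 libraries, and all groups overlapped. Its change on induction was 0.48 in shAKAP2 (SE 0.353, adjusted p = 0.345) and 0.24 in shScramble (SE 0.36, adjusted p = 0.918). It was not called in any of the 5 comparisons, nor under any alternative tried.

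CDH11 (ENSG00000140937; chromosome 16, 64943753 to 65126112, minus strand) was the cadherin with substantial expression. It read 63.5, 70.9, 68.7 and 96.4 CPM in uninduced and 24.95, 28.9, 31.8 and 36.2 CPM in induced shAKAP2. In shScramble it read 189.7, 106, 82.0 and 108 CPM without and 190.1, 120.03, 108 and 131 CPM with doxycycline, so that replicate 1 was far above the rest in both groups. The induced shAKAP2 libraries lay below all 12 others. CDH11 fell 2.46-fold on induction (log2 -1.30, SE 0.251, adjusted p = 0.00136), from 74.9 ± 14.7 to 30.5 ± 4.73 CPM (SD, n = 4 each). The change in shScramble was 0.18 (SE 0.241, adjusted p = 0.907), and the difference between the changes was -1.48 (SE 0.347, adjusted p = 0.00912). Without both shScramble replicate 1 libraries that difference was -1.59 (SE 0.24, adjusted p = 0.000413).

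With doxycycline, shAKAP2 had 4.51-fold less CDH11 than shScramble (log2 -2.17, SE 0.255, adjusted p = 1.1e-05). Before induction the lines differed by -0.70 (SE 0.243) and overlapped, which missed the threshold (adjusted p = 0.0619). It passed with DESeq2 (-0.69, adjusted p = 0.0466), with limma-voom (-0.65, adjusted p = 0.0383), and without uninduced shScramble replicate 3 or uninduced shAKAP2 replicate 4 (-0.84 in both), and was -0.39 (adjusted p = 0.113) without both shScramble replicate 1 libraries.

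CDH11 is high in fibroblasts, and a list of 10 fibroblast markers is given beside it. Their summed level was 28.8 to 48.8 CPM in uninduced and 54.2 to 80.3 CPM in induced shScramble, 25.2 to 36.4 CPM in uninduced and 21.5 to 23.7 CPM in induced shAKAP2. Of the 8 tested, 4 were lower on induction of shAKAP2 and none higher, against 15.2% and 13.1% of all genes. COL1A2 and PDGFRB gave most of the sum, and DPT was at 0 in every library. DCN summed to 95 counts in uninduced and 1 in induced shAKAP2, and COL3A1 to 182 and 10. COL1A2 averaged 11.6 CPM in uninduced and 5.47 CPM in induced shAKAP2, and PDGFRB 6.06 and 5.16 CPM. COL1A1 averaged 6.55 and 7.12 CPM and LUM 1.63 and 2.59 CPM, in the other direction. In shScramble, 2 of the 8 were higher with doxycycline and 0 lower, against 0.559% and 0.52% of all genes, and CDH11 was not called. The part of other cells in the CDH11 result was not tested.

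VIM (ENSG00000026025; chromosome 10, 17228259 to 17237593, plus strand), the intermediate filament protein vimentin, was the most abundant member. It read 1807, 1727, 1697 and 1659 CPM in uninduced and 1608, 1514, 1446 and 1506 CPM in induced shAKAP2. In shScramble it read 1515, 1433, 1324 and 1327 CPM without and 1303, 1432, 1484 and 1531 CPM with doxycycline. The shAKAP2 groups did not overlap, and VIM fell by 0.18 on the log2 scale (coded as -0.18, SE 0.0624, adjusted p = 0.034), a small change. The interaction of -0.22 did not pass (SE 0.0883, adjusted p = 0.0931), but was -0.31 (adjusted p = 0.000161) without both shScramble replicate 1 libraries.

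Before induction VIM was higher in shAKAP2 than in shScramble by 0.30 (SE 0.0624, adjusted p = 0.00286), without overlap, and with doxycycline the difference of 0.08 missed the threshold (adjusted p = 0.337). The fall on induction was not called with upper quartile scaling (-0.15, adjusted p = 0.0842), without a filter on low counts (-0.19, adjusted p = 0.0637), or without uninduced shAKAP2 replicate 1, 2 or 3 or induced replicate 2, 3 or 4 (-0.19 to -0.16). VIM shares 24.4% of its exon bases with genes on the other strand. VIM-AS1, at 4.43 to 8.73 CPM, was not called on induction (0.35, SE 0.18, adjusted p = 0.167), and since no use of strand is stated the overlapping reads cannot be told apart.

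**Figure D2:**
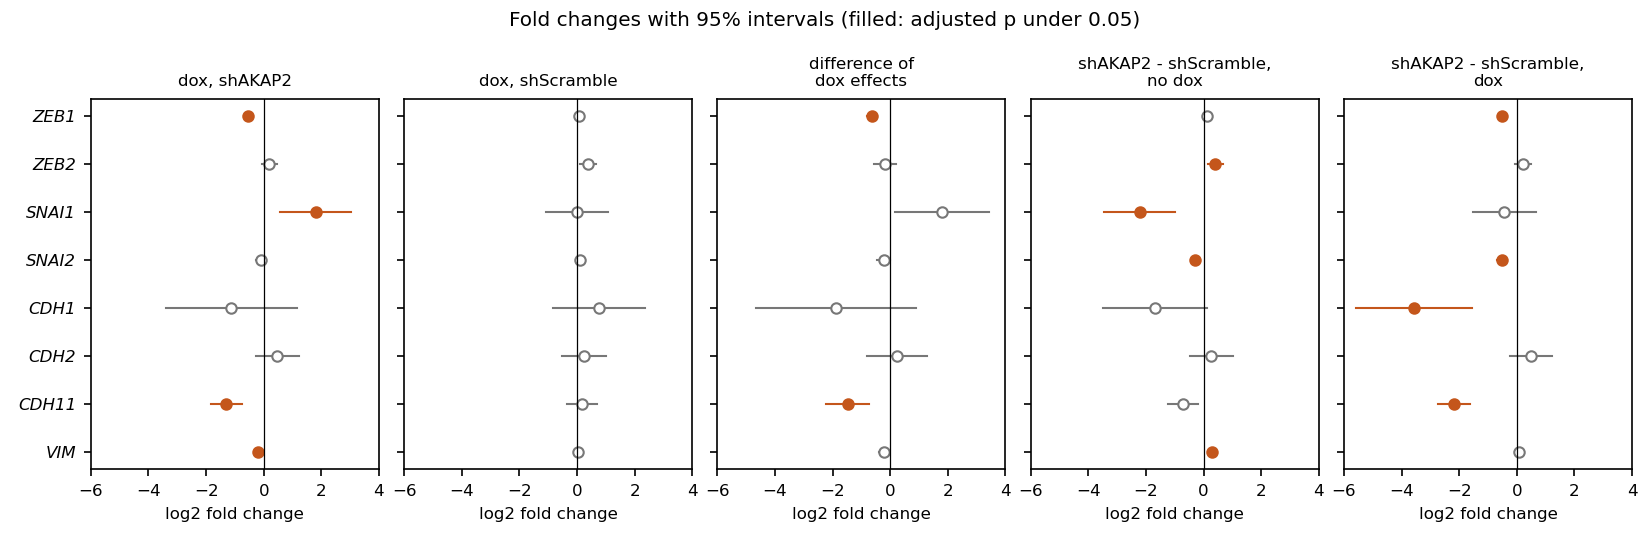
Log2 fold changes of the 8 tested members (points) with 95% intervals (lines) in the 5 comparisons, where dox is doxycycline; filled orange points have an adjusted p under 0.05. ZEB1 and CDH11 lie left of 0 in the shAKAP2 induction, in the difference of the doxycycline effects and between the lines with doxycycline, at -0.51 to -0.64 and -1.30 to -2.17, and no point is filled in shScramble.

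Between the uninduced lines 2 members were higher in shAKAP2 (ZEB2 and VIM) and 2 lower (SNAI2 and SNAI1), where 8.65% of all genes were higher and 9.31% lower. The SNAI1 call falls under the limit on its filter given above. With doxycycline in both, 0 were higher and 4 lower (ZEB1, SNAI2, CDH11 and, under the limit on its filter given above, CDH1), where 18.7% of all genes were higher and 21.5% lower. These comparisons share libraries with the induction comparisons, so their values are given side by side and are not separate evidence.

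**Figure D3:**
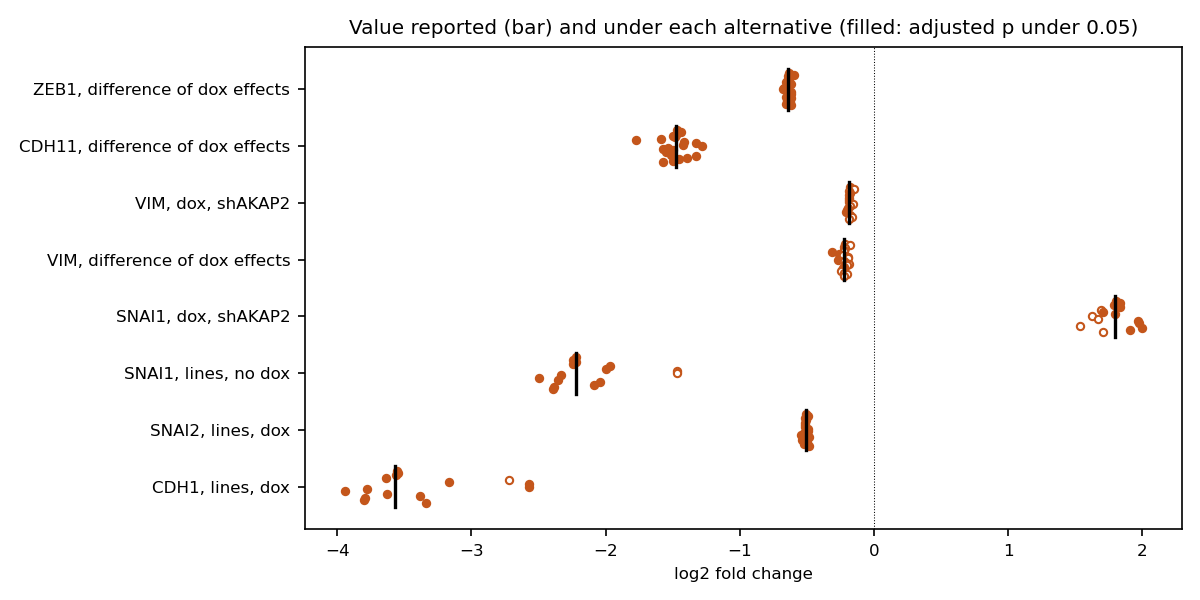
Log2 fold change as reported (black bar) and under each alternative of scaling, filter, tool and libraries (points, filled where the adjusted p is under 0.05) for 8 combinations of member and comparison. The ZEB1 and CDH11 differences stay filled at -0.68 to -0.60 and -1.78 to -1.28, while some points are open for VIM, SNAI1 and CDH1.

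The genes with the most similar profile over the 16 libraries were found by the root mean square difference of centred log2 CPM. For ZEB1 they were SMURF2 (0.0524) and PPFIA1 (0.0571), where the median over all tested genes was 0.366. For CDH11 they were TIMP3 (0.157) and TMEM135 (0.171), where the median was 0.938. On the same measure, the difference from a gene with no change at all was 0.229 for ZEB1 and 0.892 for CDH11.

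Lists of other genes around these members, written from general knowledge, were counted in the same fit. Their counts stand against 13.1% higher and 15.2% lower over all genes on induction, and 7.53% and 10.5% in the interaction. Of 22 other EMT transcription factors tested, 2 were higher and 4 lower on induction of shAKAP2 (median log2 -0.243), and 3 and 5 in the interaction. TCF12, an E-protein that partners TWIST, fell by 0.47 (coded as -0.47, SE 0.0643). ID3, an inhibitor of E-proteins, rose from 22.2 ± 2.92 to 45.6 ± 9.81 CPM (1.04, SE 0.195). YBX1 rose by 0.18 (adjusted p = 0.0127), and lost that call without a filter on low counts or without uninduced shAKAP2 replicate 4.

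Of 19 corepressors through which ZEB and SNAI proteins act, 1 was higher and 2 lower. CTBP2, the partner of ZEB1, had a change of -0.42 (SE 0.0598), the histone methyltransferase gene EHMT2 of -0.36 (SE 0.0853), and the deacetylase gene HDAC2 of 0.29 (SE 0.0599). Of 21 genes for turnover of SNAI, TWIST and ZEB proteins, 3 were higher and 3 lower. COPS2, a subunit of the COP9 signalosome that stabilises Snail, read 136 ± 2.85 CPM in uninduced and 64.7 ± 3.18 CPM in induced shAKAP2 (-1.07, SE 0.0573, adjusted p = 1.85e-11). CSNK1E changed by -0.30 (SE 0.0662) and CTDSP2, a phosphatase of Snail, by -0.37 (SE 0.0895). SIAH2, a ubiquitin ligase, rose by 0.36 (adjusted p = 0.0239), a call lost when any of 4 single libraries was left out (uninduced shAKAP2 1 or 4, induced 2 or 3). The ubiquitin ligase gene BTRC was called in the interaction (-0.32, adjusted p = 0.039) but not under 14 of 23 alternatives. HDAC2 (adjusted p = 0.0798), CSNK1E (0.27), CTDSP2 (0.0532) and SIAH2 (0.0681) were not called in the interaction. EHMT2 was called there (-0.37, adjusted p = 0.0361), but not under 13 of 23 alternatives.

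Of 26 genes of signals that induce EMT, 3 were higher and 7 lower (median -0.208), and 0 and 7 in the interaction. IL6ST, the shared receptor of the interleukin 6 family, fell from 531 ± 24.9 to 199 ± 5.62 CPM (-1.42, SE 0.0646). The hepatocyte growth factor receptor gene MET (-0.87, SE 0.0826), the Notch ligand gene JAG1 (-0.81, SE 0.0949) and SMAD3, a TGF-beta signal carrier (-0.67, SE 0.0797), fell as well. Without both shScramble replicate 1 libraries 15 of this list were lower in the interaction, where all genes called lower went from 1630 to 2567.

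Of 21 catenin and adherens junction genes, 4 were higher and 6 lower, and 1 and 5 in the interaction. VCL, which links cadherin and integrin complexes to actin, read 415 ± 3.66 CPM in uninduced and 164 ± 7.09 CPM in induced shAKAP2 (-1.34, SE 0.068). AFDN, a nectin partner, changed by -0.79 (SE 0.096), CTNNB1 (beta-catenin) by -0.34 (SE 0.0694) and CTNNA1 (alpha-catenin) by -0.29 (SE 0.0637). Of 13 other cadherins tested, 1 was higher and 1 lower. The atypical cadherin gene FAT3 rose from 3.59 ± 0.422 to 11.2 ± 1.12 CPM (1.64, SE 0.202) and CELSR1 fell (-1.68, SE 0.303). FAT3 stood at 15.1 ± 1.83 CPM in uninduced shScramble, above its mean in induced shAKAP2.

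Epithelial genes had 6 higher and 4 lower members of 28 (median 0.162), and 1 and 1 in the interaction (5 and 7 without both shScramble replicate 1 libraries). CDS1 (1.11, SE 0.146), the keratin gene KRT8 (0.40, SE 0.0803) and MAL2 (1.05, SE 0.267), a protein of apical transport, rose. The mucin gene MUC1 fell from 5.64 ± 1.08 to 1.39 ± 0.418 CPM (-2.02, SE 0.49). In the interaction CDS1 was called (0.74, adjusted p = 0.018). KRT8 (0.20, adjusted p = 0.244), MAL2 (0.91, adjusted p = 0.12) and MUC1 (-1.26, adjusted p = 0.213) were not. Mesenchymal genes had 5 higher and 9 lower members of 31 (median -0.156), and 4 and 11 in the interaction. Of them FSTL1 (0.67, SE 0.057) and the smooth muscle gene TAGLN (1.20, SE 0.119) rose, and the caveolin gene CAV1 fell (-0.66, SE 0.0684). FSTL1 was also higher with doxycycline in shScramble (0.28, adjusted p = 0.015), a call lost under 5 of 16 alternatives. Its interaction was 0.39 (adjusted p = 0.00157). Without both shScramble replicate 1 libraries 15 mesenchymal genes were lower on induction, where all genes called lower went from 2373 to 3165. Both lists moved in both directions.

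Of 18 other intermediate filament genes and partners, 3 were higher and 3 lower. The lamin gene LMNB1 rose by 0.58 (SE 0.107) and LMNA changed by -0.30 (SE 0.0677). SYNM, whose product synemin assembles with vimentin, changed by -0.54 (SE 0.146). DST, a linker of filaments to hemidesmosomes, was lower in the interaction (-0.73, SE 0.214), a call lost under 6 of 23 alternatives, as that of SYNM was under 7. Of 14 EMT-linked splicing factors, 0 were higher and 1 lower, MBNL1 (-0.28, SE 0.0646). QKI was higher in the interaction (0.39, SE 0.0902) and lower with doxycycline in shScramble (-0.30, adjusted p = 0.0181), the latter lost under 6 of 16 alternatives. Of the 23 genes picked from the lists by the naming rule that fell on induction, 6 hold GAACACA in the 3' UTR (IL6ST with 2 copies, and VCL, CTNNA1, TCF12, SMAD3 and SYNM with 1 each), and of 12 that rose, 1 does (CDS1).

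**Figure D4:**
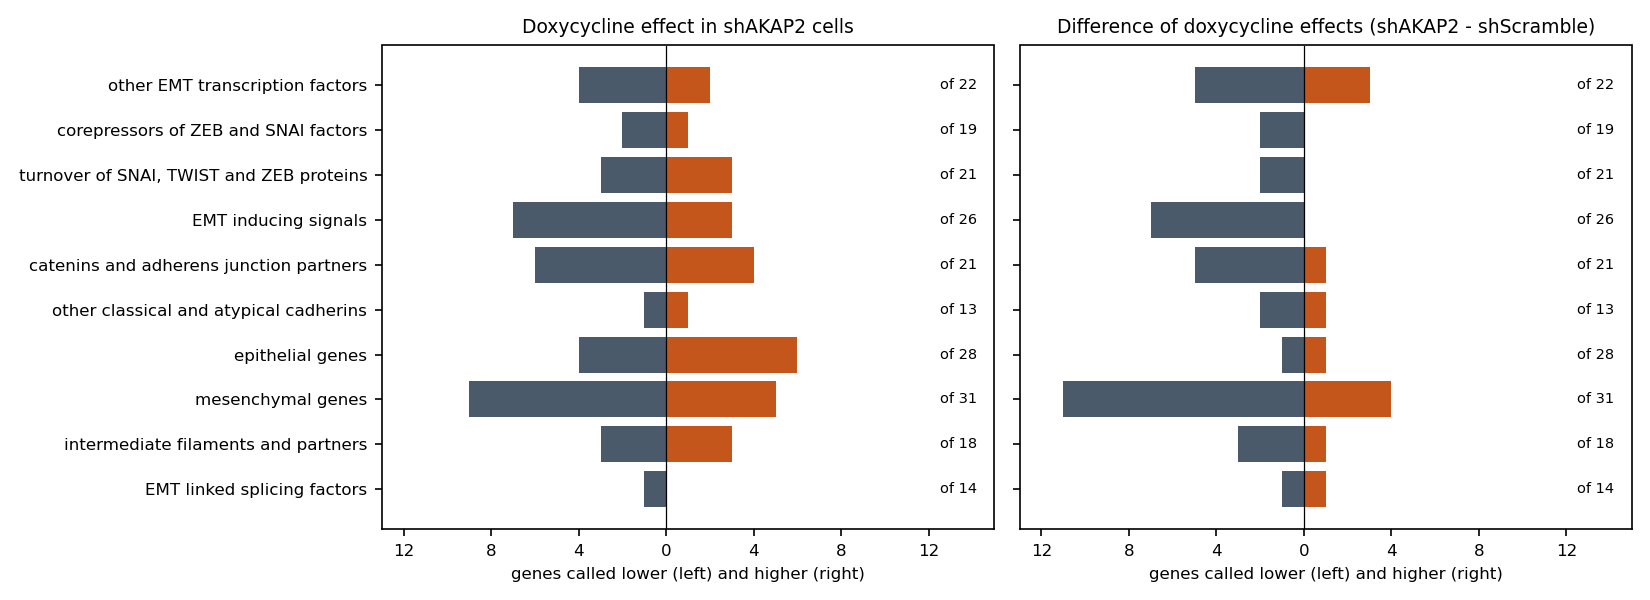
Number of genes called lower (left, dark) and higher (right, orange) in 10 lists, for the doxycycline effect in shAKAP2 and for the difference between the doxycycline effects of the lines; the number tested stands at the right. Mesenchymal genes, at 5 higher and 9 lower of 31 on induction, and signals that induce EMT, at 3 and 7 of 26, have more lower than higher members in both panels, as all genes tested do (2032 higher and 2373 lower on induction, 1172 and 1630 in the interaction). No list moved in 1 direction throughout on induction except the splicing factors, with 1 lower gene.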

How the data were processed

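RNA of 16 MDA-MB-231 libraries was analysed, 4 per group. Reads were handled with Subread 1.5.2, featureCounts and STAR 2.5.2b on GRCh38, per the submitters' processing notes. No source used here gives the annotation or the strand setting. Raw counts per gene, for 57500 genes, are what the authors deposited. The members and gene lists were chosen with earlier results of these data known.

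Counts were filtered with filterByExpr (15566 genes kept), scaled by TMM and fitted with edgeR 4.0.16 (quasi-likelihood, robust, 1 mean per group, 12 residual degrees of freedom) in R 4.3.3. Adjusted p-values are Benjamini-Hochberg over all genes tested. DESeq2 1.42.0 and limma-voom (limma 3.58.1), 2 other scalings, no filter, only the groups compared, a replicate block and omitted libraries were alternatives. All members were named, with values in every library for those called and for CDH1; from each list, up to 4 called genes of at least 1 CPM with the smallest p on induction and 2 for the interaction, some of which are not reported here. Same-numbered libraries of 2 groups did not all correlate, so numbers were not used as pairs. The fit was tested on simulated data. Depth was 24482997 to 37472525 counts per library, which limits genes at a few counts. Positions and 3' UTRs are from GENCODE 29 (1 transcript per gene), and miRNAs from RefSeq.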

Additional observations from a re-analysis of the deposited data

Results flagged for a closer look

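The change with doxycycline differed between the lines for 2 members by the interaction term: ZEB1, at -0.64 on the log2 scale (SE 0.0882), and CDH11, at -1.48 (SE 0.347).

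A single library stood away from the other 3 of its group in 3 of 43 combinations of gene and group, judged by the gap to the nearest library over the group's range, against Dixon's 95% critical value. Chance gives about 1 in 20, or 2.1 of 43, for normally distributed values, which counts near 0 are not. Both TWIST1 groups had 3 libraries at 0, where the ratio is 1 whatever the remaining count. The ratio was 1 for TWIST1 in induced shAKAP2 (replicate 2, with 2 counts) and 1 for TWIST1 in uninduced shScramble (replicate 1, with 1 count), and 0.832 for TWIST2 in uninduced shAKAP2 (replicate 3, with 6 counts). All 3 rest on 6 counts or fewer.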

How the results depend on the processing

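The calls of ZEB1 and CDH11 on induction, in the interaction and between the lines with doxycycline kept their direction and significance under every alternative run. On induction of shAKAP2, the number of members called higher, 1 as reported, was 0 with limma-voom and 0 with only the groups compared, where SNAI1 was not tested, and 0 to 1 when single libraries were left out. VIM, 1 of 3 members called lower on induction, lost that call under 8 of 16 alternatives. In the interaction VIM was called lower without both shScramble replicate 1 libraries (-0.31). The same held when just the uninduced (-0.26, adjusted p = 0.0259) or just the induced (-0.27, adjusted p = 0.0104) replicate 1 library was omitted. Between the lines with doxycycline, the CDH1 call was lost with limma-voom, and CDH1 was not tested with only the groups compared. In shScramble, members called higher went from 0 to 1 (ZEB2) without both shScramble replicate 1 libraries. Between the uninduced lines, 2 members were called lower as reported. There was 1 with only the groups compared, 1 without both shScramble replicate 1 libraries and as few as 1 without single libraries. CDH11 was called lower too with DESeq2, with limma-voom, and without uninduced shScramble replicate 3 or uninduced shAKAP2 replicate 4. Members called higher, 2 as reported, were 1 to 2 without single libraries. The replicate block gave 1 higher and 3 lower on induction of shAKAP2 and 0 higher and 2 lower in the interaction, and changed no call of a member. It fits 1 effect per replicate number shared by both lines, so it does not test pairing within a line. The correlation of same-numbered libraries was -0.0178 to 0.4 between the groups of a line, and not every library matched its own number best. The value of 0.4 was that of replicate 1 in shScramble, and a fit with pairs within that line was not run.

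Over all genes, calls moved by more than 1.5 times in these cases. On induction of shAKAP2, 3144 were higher with only its groups. The interaction had 2256 higher and 2567 lower, and the uninduced lines 2130 higher, without both shScramble replicate 1 libraries. The uninduced lines had 750 higher and 919 lower without shAKAP2 replicate 1, and 802 and 947 without replicate 2. In shScramble there were 168 higher and 132 lower with DESeq2, 14 and 23 with only its groups, 588 and 414 without both replicate 1 libraries, 241 and 168 without uninduced replicate 1, 241 and 163 without induced replicate 1, and 41 to 48 higher without any other single library. The cause was not tested. Under the 2 other scalings the median log2 change of all genes lay between -0.0307 and 0.0415 across the comparisons. Depth limits SNAI1, CDH1, TWIST1 and TWIST2.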
